A study of Mus musculus with 9 samples.

Results

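The genes described here are the mouse zinc finger genes whose symbol begins with Zfp and which carry at least 1 Mbnl2 binding peak in wild-type hippocampus. They were chosen by name alone from the authors' list of significant peaks. The name gave 66 genes of the 4800 genes with a peak, and 147 peaks of 10407. Because every one of them was taken from that list, having a peak is not a result for them.

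The study mapped where Mbnl2, an RNA-binding protein, contacts RNA, and compared splicing with and without it. Binding was read by CLIP, in which ultraviolet light links the protein to RNA in the tissue and the linked fragments are purified and sequenced. Each distinct fragment is a tag, and a peak is a short stretch where the tags of the 3 libraries together piled up above the authors' threshold. The 3 CLIP libraries came from wild-type female mice of 3 months, labelled as a mix of C57BL/6 and 129 SvlmJ, although the series' own description names BL6. That description speaks of 3 mice and of brain, while the labels name hippocampus; that each library is 1 animal is not spelled out. The exon tables came from polyA RNA sequencing of hippocampus of female mice at 2-3 months, with 3 wild-type and 3 Mbnl2 ΔE2/ΔE2 knockout samples, and from a splicing array whose scores are headed as brain. No CLIP library of the knockout and no input library was used here, so a tag count mixes binding with how much of the transcript is present. In bulk tissue, fewer cells of a type and less RNA per cell cannot be told apart.

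Most Zfp genes encode DNA-binding transcription factors with C2H2 zinc fingers, many of them repressors that arose by repeated gene duplication, so several have close relatives in clusters. Mbnl2 is itself a zinc finger protein, of the CCCH type, whose fingers grip RNA instead of DNA. In introns, Mbnl proteins are known for steering alternative splicing of nearby exons. In 3'UTRs, the untranslated ends of mRNAs, they are known for effects on where a message goes and how long it lasts.

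The libraries held 159144, 209430 and 334857 unique tags, and 1 tag was worth 6.28, 4.77 and 2.99 CPM in libraries 1, 2 and 3 (CPM, tags per 1000000 unique tags of the library). A count of 0 therefore allowed up to 18.9, 14.3 and 8.96 CPM, taking 3 tags as the limit. As a check of the tissue, 5 of 6 neuron markers had a peak, 3 of 5 hippocampus markers, 4 of 5 astrocyte markers and 3 of 5 oligodendrocyte markers, while Rbfox3, Neurod6, Wipf3, Gfap, Mag and Mog had none. None of 5 microglia markers had a peak. Of 4 endothelium markers 2 had a peak, and Cldn5 and Tek had none. Of 3 choroid plexus markers 1 had a peak, Ttr, while Kl and Aqp1 had none. Peaks of Ttr ranged from 157 to 1031 CPM between libraries, and their part in the Zfp values was not tested.

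Peaks were not more frequent in Zfp genes than in other genes. Among protein-coding genes that RefSeq now calls Zfp, 70 of 400 had a peak, which is 17.5% with an exact 95% interval from 13.9 to 21.6; over all 21900 protein-coding genes the share was 21.8%. In 10 of these the peak was listed under a symbol that does not begin with Zfp. The reverse also occurred. Of the 66 genes, 7 now have another name, and all of these except Zfp191 no longer begin with Zfp. Zfp238 is now Zbtb18, Zfp187 is Zscan26, Zfp191 is Zfp24 and Zfp192 is Zkscan8. Zfp294 is Ltn1, a ubiquitin ligase of ribosome quality control, Zfp828 is Champ1, a chromosome alignment protein, and Zfp91-cntf is Gm44505. The 66 genes lay on 20 chromosomes, with 11 genes and 38 peaks on chromosome 7.

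The typical Zfp gene had few tags and a pair of genes held much of the signal. One peak was found in 34 genes, 2 peaks in 21 and 3 peaks in 4, and the other genes had between 4 and 22. The median gene had 7.5 tags over all libraries, 41 genes had fewer than 10 and 9 had at least 20. Zfp238 took 18.5% of the 936 tags in Zfp peaks, and Zfp238 with Zfp553 took 36.1%. The gene behind the tags named Zfp553 is uncertain, as described below. All Zfp peaks together held 1433, 1294 and 1305 CPM in libraries 1, 2 and 3, with a mean of 1344 ± 77.1 CPM (SD, n = 3). The sum was 0.897%, 0.801% and 0.900% of all tags in peaks, so the 3 libraries gave close to the same share.

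Individual genes were less even. Tags were present in all 3 libraries for 47 of the 66 genes, and 13, 7 and 2 genes had no tag in libraries 1, 2 and 3, in the order of rising depth. Across the 66 genes, Pearson's r of log2(CPM + 1) was 0.58 for libraries 1 and 2, 0.52 for 1 and 3, and 0.63 for 2 and 3. These are descriptions across genes that share libraries and a peak list called on the pooled tags. Among the 198 genes of any name with at least 100 tags, the coefficient of variation over libraries had a median of 15.0%, and the 2 best covered Zfp genes stood at 5.74% (Zfp238) and 11.4% (Zfp553).

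**Figure D1:**
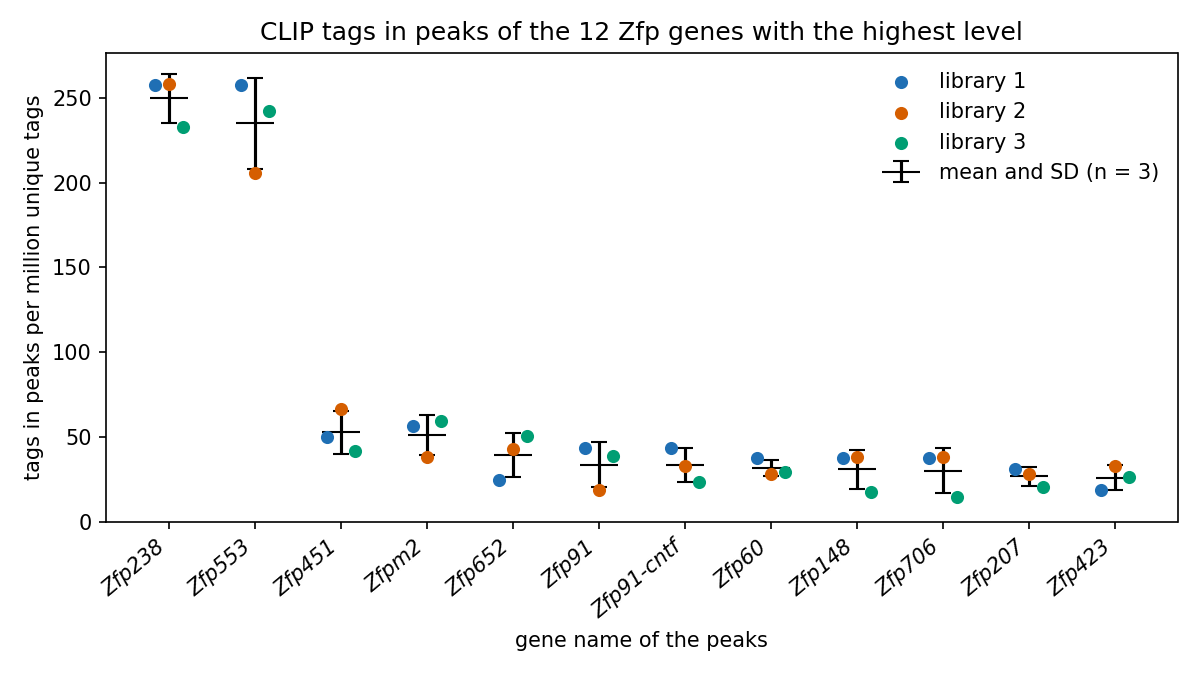
CPM in peaks (vertical axis) for the 12 Zfp genes with the highest mean, one coloured point per library, with a black bar for the mean and SD of the 3 libraries. Zfp238 at 249 CPM and Zfp553 at 235 CPM stand far above Zfp451, the next gene, at 53.0 CPM.

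Zfp peaks were lower than other peaks, and their split between 3'UTRs and introns depended in part on 1 gene. The median height, the deepest pile-up of pooled tags in the peak, was 4 tags for Zfp genes and 6 for all other genes. In 3'UTR peaks alone it was 5 against 9, and in intronic peaks 4 against 4. Heights ran from 2 to 45, and 19 of 147 Zfp peaks (12.9%) reached 10 tags, against 29.8% of other peaks. Those 19 peaks lay in 9 genes, and 7 of them were in Zfp238.

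By the authors' classes, 63 Zfp peaks (42.9%, exact 95% interval 34.7 to 51.3) lay in 3'UTRs, against 55.4% of other peaks. Introns held 67 (45.6%, 37.4 to 54.0), against 33.8%. Coding sequence held 6 peaks (4.08%, against 6.54%), 5'UTRs 5 peaks (3.40%, against 1.19%) and mixed classes 6 peaks (4.08%, against 3.09%). The intervals cover counting error only, and peaks of 1 gene are not independent. The single gene Zfp553 carried 22 peaks, none in a 3'UTR, and without it 50.4% of 125 Zfp peaks (exact 95% interval 41.3 to 59.5) were in 3'UTRs and 38.4% (29.8 to 47.5) in introns. Both of these intervals include the value of the other peaks, which does not show that the shares are equal. Both shares still leaned the same way as with Zfp553. Counted by gene, 31 genes had 3'UTR peaks only, 15 had intronic peaks only, 8 had both and nothing else, and 12 had other combinations.

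**Figure D2:**
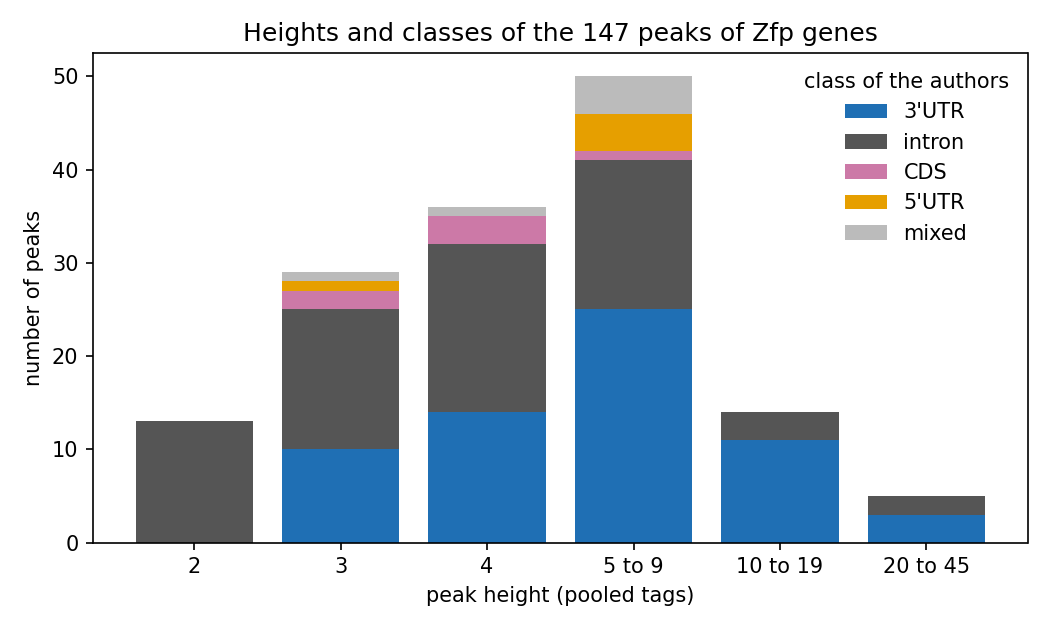
Number of Zfp peaks (vertical axis) by height in pooled tags (horizontal axis), stacked by the authors' class. All 13 peaks of height 2 were intronic, while 11 of the 14 peaks of 10 to 19 tags and 3 of the 5 peaks of 20 to 45 tags lay in 3'UTRs. The others of at least 10 tags all carried the name Zfp553.

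A tag from every library was found in 83 of the 147 Zfp peaks (56.5%, exact 95% interval 48.0 to 64.6), against 64.2% of all peaks in the list. Another 55 peaks had tags from 2 libraries. The other 9 came from 1 library, which was library 3, the deepest, in 8 of them. The exception was an intronic peak of Zfp462 in a simple repeat, with 4 tags in library 1 and none in libraries 2 and 3. At equal height the Zfp share was not lower throughout: 27.6% of those 3 tags high had all 3 libraries, against 28.1% of other peaks. At 4 tags the shares were 55.6% against 40.7%, and at 5 to 9 tags 72.0% against 69.2%. All 19 peaks of at least 10 tags had all 3 libraries, as did 95.8% of other peaks of that height.

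Repeats overlapped 26 Zfp peaks (17.7%, exact 95% interval 11.9 to 24.8), against 12.3% of other peaks. In 3'UTRs the share was 9.52%, which is 6 of 63 peaks, against 3.57%, and in introns it was 25.4% against 29.6%. Of the 26, 12 overlapped LINE elements, 4 SINE elements, 4 LTR elements, 4 simple repeats, 1 a low-complexity stretch and 1 an rRNA repeat. In 8 genes every peak lay in a repeat. Zfp809, which silences retroviral sequences in mouse embryonic stem cells, had its single peak in an LTR element within its 3'UTR, with 6.28, 4.77 and 14.9 CPM. Zfp26 had both of its peaks inside LINE sequence, at 37.7, 9.55 and 11.9 CPM, highest in the shallowest library. The sources used here do not say how tags that match several places in the genome were handled, so the placing of tags in repeats and between closely related zinc finger genes is uncertain.

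The genes are described next by what they do, beginning with regulators of neurons. Zfp238, a transcriptional repressor needed for the differentiation of cortical and hippocampal neurons, had the highest mean of the Zfp genes. Its order against Zfp553 is not resolved. Both names had 41 tags in library 1, and Zfp553 was the higher in library 3, at 242 against 233 CPM. Its 7 peaks all lay in the 3'UTR, on the plus strand of chromosome 1 between 179378883 and 179380415 (mm9), a stretch of 1533 nt. They held 258, 258 and 233 CPM (41, 54 and 78 tags), a mean of 249 ± 14.3 CPM (SD, n = 3). The libraries were close together, and each peak had tags from all 3.

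The tags of Zfp238 sat mainly on 3 of its peaks. The tallest, at 45 pooled tags and 218 nt from the start of the first, held 75.4, 71.6 and 53.8 CPM. The next, at 44 tags and 951 nt, held 50.3, 85.9 and 53.8 CPM, and was highest in library 2. The last, at 30 tags and 1532 nt, held 31.4, 47.7 and 44.8 CPM, lowest in library 1. Together these 3 peaks took 61.0%, 79.6% and 65.4% of the gene's peak tags. The smaller peak at 602 nt was uneven, with 2, 1 and 10 tags in libraries 1, 2 and 3. The whole stretch held 328 tags on the gene's strand and 0 on the opposite one, and 52.7% of them touched a peak.

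**Figure D3:**
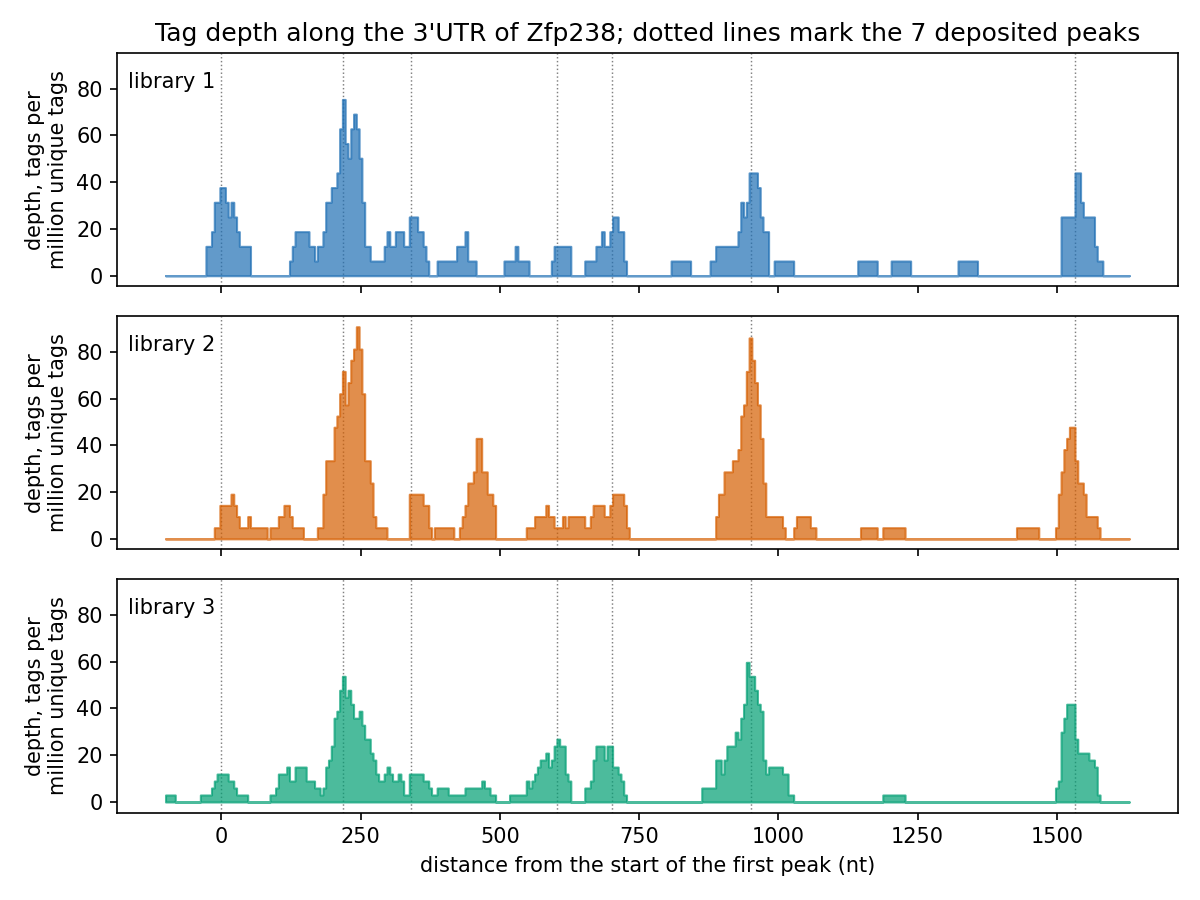
Tag depth in CPM (vertical axes, one panel per library) along the 3'UTR of Zfp238, by distance in nt from the first peak; dotted lines mark the 7 peaks. The same 3 places, near 218, 951 and 1532 nt, rise highest in every library. In library 1, however, the listed peak at 1532 nt held 31.4 CPM, below the 37.7 CPM of the first peak. Library 2 shows a further rise between 340 and 602 nt where no peak was listed.

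Zfp365, which encodes a partner of the schizophrenia-linked protein Disc1, had 1 3'UTR peak on chromosome 10 of height 16. It held 6.28, 28.6 and 26.9 CPM, a mean of 20.6 ± 12.4 CPM (SD, n = 3). Library 1 had a single tag there, and libraries 2 and 3 had 6 and 9. Zfp423, a transcription factor of cerebellar and fat cell development, had 2 3'UTR peaks on chromosome 8 that lie 227 nt apart. Its levels were 18.9, 33.4 and 26.9 CPM, and every library had tags in both peaks.

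Zfp536, known as a repressor of neuronal differentiation, had 4 peaks, all intronic and all 4 tags high. Its levels were 25.1, 28.6 and 17.9 CPM, a mean of 23.9 ± 5.47 CPM (SD, n = 3). The peaks fell into a group of 3 and a single one 167794 nt from the first. Zfp462, a chromatin-associated factor of brain development, had 31.4, 19.1 and 11.9 CPM in 3 peaks. In library 1, 25.1 of the 31.4 CPM came from the repeat peak seen in that library alone.

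Zfpm2, also called FOG2, is a cofactor that binds GATA transcription factors. It carried 7 peaks on chromosome 15, 4 in introns, 2 in the 3'UTR and 1 in the 5'UTR, and they spread over both ends and the introns of the gene. The levels were 56.6, 38.2 and 59.7 CPM, a mean of 51.5 ± 11.6 CPM (SD, n = 3). Of the 4 intronic peaks, 2 overlapped simple repeats, and 1 of those came from library 3 alone. Zfpm1, the other GATA cofactor of this kind, had no listed peak.

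Among genes that act on proteins, Zfp451, whose human counterpart is a SUMO ligase, came next after Zfp238 and Zfp553 in level. It carried 8 peaks, all intronic, on the minus strand of chromosome 1, and 7 of them lay within 4827 nt. The levels were 50.3, 66.8 and 41.8 CPM, a mean of 53.0 ± 12.7 CPM (SD, n = 3). Its tallest peak reached 9 tags, so the level came from many small peaks, unlike that of Zfp238.

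Zfp91, a ubiquitin ligase of the NF-kappa-B pathway as known in human cells, had 3 peaks in its 3'UTR at 44.0, 19.1 and 38.8 CPM. Zfp91-cntf, the name for the transcript that reads from Zfp91 into the neighbouring growth factor gene Cntf, had 2 at 44.0, 33.4 and 23.9 CPM. The 5 peaks alternate along 2315 nt of chromosome 19, so the list divides a single stretch between both names. Taken as 1 stretch they held 88.0, 52.5 and 62.7 CPM, a mean of 67.7 ± 18.2 CPM (SD, n = 3), and the library values overlapped those of Zfp451.

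Several Zfp genes encode RNA-binding or spindle proteins. Zfp36l1, a CCCH protein that speeds the decay of mRNAs with AU-rich ends, had 2 3'UTR peaks 167 nt apart at 6.28, 19.1 and 23.9 CPM, lowest in library 1. Its relatives Zfp36 and Zfp36l2 had no listed peak. Zfp207, a spindle assembly protein that binds Bub3, had 31.4, 28.6 and 20.9 CPM in a 3'UTR peak of 12 tags and a smaller peak of mixed coding and 3'UTR class. Zfp106, an RNA-binding protein whose loss in mice causes motor neuron disease, had 2 small 3'UTR peaks with 12.6, 19.1 and 5.97 CPM. The difference between libraries 2 and 3 there was 4 against 2 tags. Zfp385b had 1 3'UTR and 1 intronic peak at 18.9, 9.55 and 14.9 CPM.

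Of the other factors, Zfp148, a Krüppel-type factor that binds GC-rich promoters, had 3 3'UTR peaks at 37.7, 38.2 and 17.9 CPM. Zfp706, which promotes the exit of mouse embryonic stem cells from pluripotency, had 2 at 37.7, 38.2 and 14.9 CPM. Both were lowest in library 3, the deepest. Zfp60 had 2 3'UTR peaks 100 nt apart, the taller with 15 tags, and was steadier, at 37.7, 28.6 and 29.9 CPM. The library values of Zfp652, Zfp91, Zfp91-cntf, Zfp60, Zfp148 and Zfp706, with means between 30.3 and 39.6 CPM, overlapped, so their order is not resolved.

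Peaks in 5'UTRs and coding sequence were few. Zfp445, a KRAB zinc finger protein that helps keep imprints, had its only peak in the 5'UTR, 7 tags high, at 12.6, 14.3 and 5.97 CPM. Zfp687, part of a chromatin complex with Zfp592 and Zmynd8, had a 5'UTR peak of the same height at 12.6, 4.77 and 11.9 CPM. Zfp574 had a coding peak at 18.9, 0 and 2.99 CPM, which rested on 3 tags in library 1 and 1 in library 3. Zfp704 had 1 peak of mixed 5'UTR and 3'UTR class at 12.6, 4.77 and 2.99 CPM. Zfp800 had 5 intronic peaks, 4 of which were only 2 tags high, at 18.9, 9.55 and 17.9 CPM.

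Of the 28 Zfp genes in a list drawn up by role, 13 had a peak and 15 had none, beside 17.5% of RefSeq Zfp genes and 21.8% of all protein-coding genes. That list was drawn up with earlier results of these data known, so nothing is read from its share. Those without included Zfp521, Zfp804a, Zfp143, Zfp281, Zfp292, Zfp131, Zfp64, Zfp110, Zfp385a, Zfp57, Zfp42 and Zfp568. No listed peak does not mean no binding, given the few tags behind a typical Zfp peak.

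Zfp553 came second by mean, with its order against Zfp238 not resolved, and was the name with the most peaks. Its 22 peaks held 258, 205 and 242 CPM (41, 43 and 81 tags), a mean of 235 ± 26.8 CPM (SD, n = 3), and 13 of them had tags from all 3 libraries. The authors classed 19 as intronic and 3 as coding. They spread over 76251 nt of the plus strand of chromosome 7, from 134629156 to 134705406 (mm9), whereas the RefSeq gene model of GRCm38.p6 is 5137 nt long. The tags were steady between libraries, but the gene they belong to is uncertain.

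The Zfp553 peaks formed 3 groups. The first covered 4473 nt, with all 3 coding peaks and heights up to 8, and held 25.1, 19.1 and 29.9 CPM. The second began 47987 nt further on, covered 6410 nt with 9 intronic peaks up to 28 tags high, and held 126, 100.3 and 134 CPM. The third followed after another 7812 nt, covered 9569 nt with 9 intronic peaks up to 24 tags high, and held 107, 85.9 and 77.6 CPM. Most tags of the name thus lay in the second and the third group, farther from the coding peaks than the gene model is long.

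The highest single peak, of 28 tags, had 9, 3 and 16 tags in libraries 1, 2 and 3, lowest in library 2. The nearest peaks with other names were those of Tbc1d10b, 280262 nt before, and Fbxl19, 201300 nt after. In GRCm38.p6, 25 protein-coding genes lie between those genes, and Zfp553 is the only one of the 25 with a listed peak. By order of their starts, only Mylpf and Septin1 precede Zfp553 at the Tbc1d10b end. Zfp771 follows it directly, and Fbrs and Srcap come later. Which gene the tags came from was not tested. Zfp652, a repressor whose human counterpart works with CBFA2T3, was the only other member whose peaks spanned more than its gene model, 67889 against 15649 nt. It had 6 peaks at 25.1, 43.0 and 50.8 CPM, and 3 of its 4 intronic peaks lay in SINE elements.

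**Figure D4:**
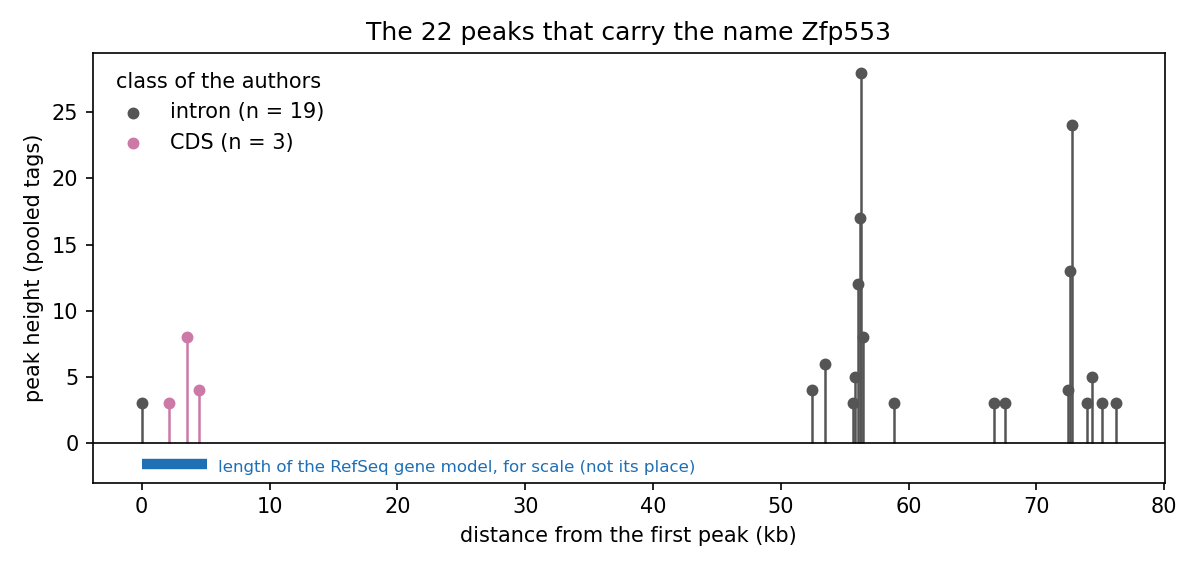
Height in pooled tags (vertical axis) of the 22 peaks named Zfp553 by distance in kb from the first (horizontal axis), coloured by the authors' class; the blue bar shows the 5137 nt of the gene model to scale, not its position. The 3 groups of peaks lie apart, and the peaks of 28 and 24 tags stand in the second and the third group.

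Zfp553 also bore on the intronic share of tags. Of the tags in intronic and 3'UTR peaks of Zfp genes, 40.8%, 38.1% and 40.3% were in introns in libraries 1, 2 and 3, against 16.4%, 15.7% and 17.8% for all other genes. The Zfp share was higher in each library, by 24.4, 22.4 and 22.4 percentage points, a mean of 23.1 ± 1.14 points (SD, n = 3). An exact two-sided sign-flip permutation test gave p = 0.25, the smallest that 3 libraries allow. Without Zfp553 the shares were 27.4%, 26.4% and 26.9%, and the difference was 10.3 ± 1.01 points (p = 0.25, same exact test). Without Zfp238 it was 33.2 points. The direction held in all 3 libraries each time. The size of the difference fell without Zfp553 and rose without Zfp238, so the 2 genes pulled it in opposite directions. Leaving out both together was not tried. The libraries share 1 peak list called on their pooled tags, so their agreement is not independent.

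**Figure D5:**
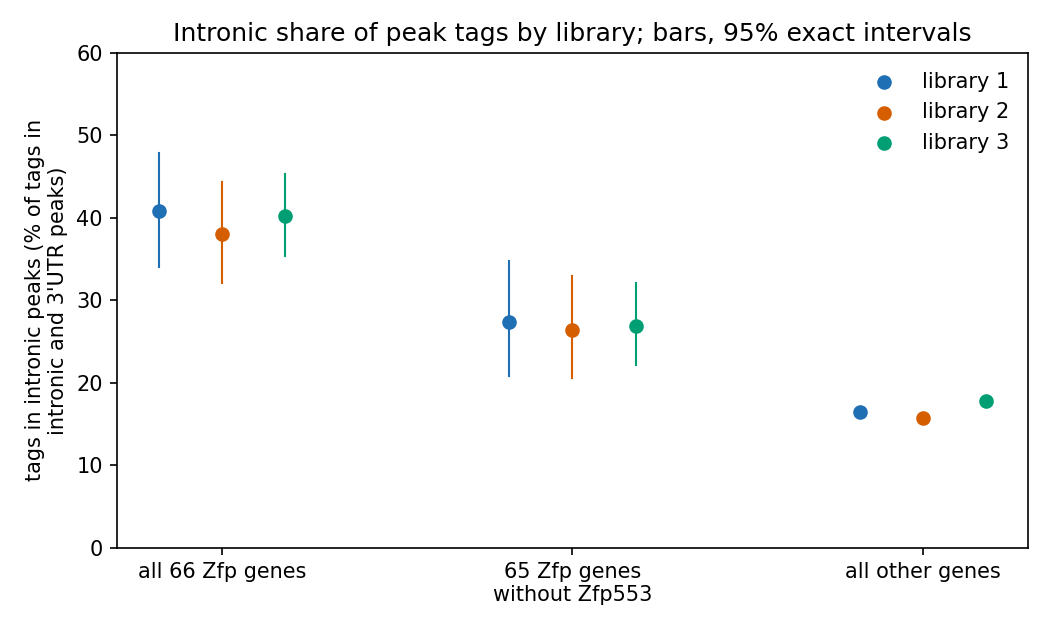
Share of tags in intronic peaks among tags in intronic and 3'UTR peaks (vertical axis, %), one point per library, with exact 95% intervals from counting error for the Zfp sets. All 3 libraries lie between 38.1% and 40.8% with all 66 genes, between 26.4% and 27.4% without Zfp553, and between 15.7% and 17.8% for other genes.

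Mutation sites, where the authors found repeated sequencing errors left by the crosslink, were listed for 1 of the 66 genes, against 3.90% of the 4800 genes with a peak. That gene was Zfp180, with a site at 24873264 on the plus strand of chromosome 7 (mm9), in an intron. In the authors' deposited table of sites, 4 mutations were counted there among 4 tags, which came from libraries 1, 2 and 3 as 1, 2 and 1. The site lay 18626 nt from the gene's only peak, a 3'UTR peak of 10 tags with 12.6, 14.3 and 14.9 CPM. That peak was even across libraries, and no mutation site lay within 50 nt of any Zfp peak.

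Few of these genes held an exon listed as changed with loss of Mbnl2, and the same was true of genes with a peak in general. The authors' RNA sequencing list of 209 exons held no Zfp gene, and their joint list of 290 held Zfp275 and Zfp758. Of the 66 genes with a peak only Zfp275 was in the joint list, against 3.79% of the 4800. The array list of 468 events held 3 Zfp genes, all with a q-value of at most 0.05. In that list 90.5% of the events with a q-value pass the same limit, so passing sets them apart little. None of these tables holds values per animal, and none used here names the genotype behind the sign, so signs are given against that of the 39 nt exon of Ndrg4, which scored -1.57 on the array in the authors' deposited table. Where it holds an exon named here, the joint list gives an array score of the same size with the opposite sign.

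For the 92 nt exon of Zfp275, on chromosome X, the authors' deposited table gives an array score of -0.703 with a q-value of 0, the same sign as Ndrg4 and rank 59 by size. The authors' deposited table of joint targets gives a change in inclusion from RNA sequencing of 0.0207 for this exon, against 0.411 for Ndrg4. The change of 0.0207 is below the authors' limit of 0.1, and the exon was not in their RNA sequencing list. The only Zfp275 peak lay in the 3'UTR, 6388 nt past the exon, with 6.28, 4.77 and 8.96 CPM. No library had a tag in the stretch given for the event. A peak and an exon listed as changed by its array score thus occurred in the same gene but not at the same place.

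For the 98 nt exon of Zfp758 the authors' deposited table gives an array score of -0.627 with a q-value of 0.011, again the sign of Ndrg4. This gene had no peak, and its event held 0, 1 and 3 tags in libraries 1, 2 and 3. For the 127 nt exon of Zfp426 the authors' deposited table gives 0.369 with a q-value of 0.043, the opposite sign. Zfp426 had no peak and no tag in the event, and it was absent from the joint list.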

How the data were processed

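The authors aligned reads to mm9; the submitters' processing notes name Novoalign and TopHat 1.3.2, with settings not given in the sources used here. Unique tags per library and peak heights are counts deposited by the authors, and peaks were called on the 3 libraries pooled, at a p-value under 0.01 after Bonferroni correction, per the file headers. The repeat overlap of a peak is a fraction from the authors' deposited table. Mutation sites, per the file headers, have 4 or more mutations and a false discovery rate up to 0.001. Exon tables give the authors' change in inclusion, array separation score and q-value, with no values per animal; 0 columns of per-sample values were left unused.

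A tag counted for a peak if it overlapped it on the same strand, and counts were divided by the library's unique tags and multiplied by 1000000. The counting returned the deposited height as the deepest pile-up for all 10407 peaks and was tested on simulated data. Region classes are the authors'. Shares carry exact Clopper-Pearson 95% intervals, and floors use 3 counts; both cover counting error only. The series speaks of 3 CLIP mice, but no label ties a library to an animal, so spreads may be partly technical. Zfp and other peaks were compared within libraries, with an exact sign-flip test over the 3 libraries. Members and lists were chosen with earlier results of these data known. Named genes are the 12 with the highest level, the 6 with the most peaks, those in the mutation or exon tables, up to 6 with coding or 5'UTR peaks, and a role list; genes named for a former symbol or a repeat were picked after their values were seen. RefSeq of GRCm38.p6 gave current names, neighbours and gene lengths, and its coordinates were used only to order the neighbours. Alternatives changed the overlap rule, strand, peak width, minimum height, scaling, name rule and libraries. Counting ran in Python 3.11.15 with pandas 2.3.3 and numpy 2.4.6, intervals came from scipy 1.17.1, and plots from matplotlib 3.10.9.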

Additional observations from a re-analysis of the deposited data

How the results depend on the processing

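The higher intronic share of Zfp tags kept its direction under every alternative tried, between 10.3 points without Zfp553 and 33.2 without Zfp238. Leaving out each library gave 22.4 to 23.4. The 21.1 points with peaks of at least 10 tags came from Zfp553 alone, because no other Zfp gene had an intronic peak that tall. The direction therefore does not hold for tall peaks of the other Zfp genes. The sum of 1344 CPM moved by construction with what was counted: 559 with tag centres, 1828 with peaks widened by 50 nt, 510.3 with peaks of at least 10 tags and 8663 per 1000000 tags in any peak. It was 1109 without Zfp553, 1094 without Zfp238 and 1181 without peaks in repeats, 3 alternatives chosen after seeing the data, and 1300 to 1369 leaving out each library. The share of peaks with all libraries was 24.5% with tag centres, 18.4% requiring 2 tags in each and 100% at 10 tags or more. The 3'UTR share was 73.7% at 10 tags or more (others 83.6%) and 53.0% for the highest peak of each gene (others 57.9%), with no test of either difference. At 10 tags or more, every Zfp peak outside 3'UTRs carried the name Zfp553. The 14 peaks of that height in other Zfp genes all lay in 3'UTRs, so the lower share there came from Zfp553 alone. The median height at 10 tags or more was 13 (others 16). Tags of both strands, the stricter name rule, the wider distance to mutation sites and the exon lists without thresholds changed no call. Most single peaks held under 10 tags, so differences of a few tags between libraries were not detectable. No paired analysis was possible because, among the study's groups, only the CLIP group has values per library here; Zfp and other peaks were compared within each library.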

Other observations

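Zinc finger genes outside the Zfp name also carried peaks. The Zbtb genes, transcription factors with a BTB domain, had 34 peaks in 12 genes, 13 in 3'UTRs and 19 in introns. That count goes by listed symbol and leaves out Zfp238, now Zbtb18, with 7 3'UTR peaks and a mean of 249 CPM. The Zbtb genes so counted held 427, 387 and 385 CPM, a mean of 399.8 ± 23.8 CPM (SD, n = 3). Zbtb20, a factor of hippocampal neuron identity, was the highest of them. The Zeb genes, repressors of epithelial genes and of neural differentiation, had 9 peaks in 2 genes at 145, 158 and 128 CPM, close together in all libraries. The Zc3h genes, which like Mbnl2 have CCCH fingers, had 8 peaks in 7 genes at 44.0, 33.4 and 65.7 CPM. In 3'UTRs lay 38.2% of Zbtb, 44.4% of Zeb and 37.5% of Zc3h peaks, beside 42.9% of Zfp peaks. A low 3'UTR share was thus not particular to the Zfp name. Families differed, with 66.7% for Klf and 90.9% for Zmat, most of them on few peaks and without a test. Intronic shares of tags were not computed for these families.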
